A study of Mus musculus with 8 samples.

Results

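The genes that detoxify reactive oxygen in the mouse thymus were compared between spaceflight and ground-control animals as 1 module of 65 genes, out of 19938 genes measured. Members were chosen by symbol in the array's platform annotation: every glutathione S-transferase of the Gsta, Gstk, Gstm, Gsto, Gstp and Gstt classes, every gene whose symbol starts with Gpx, Prdx, Sod or Txn, and 13 further genes of glutathione synthesis, the NRF2 pathway and peroxide or heme breakdown. Each gene was represented by the probe set of highest mean signal among those naming that gene alone. Gsta1, Gsta2 and Gstp2 lay only on probe sets shared with other genes and were not members. Prdx5 and Prdx6 were not among the members either, so the peroxiredoxin family is incomplete here. The listed Prdx6-ps2 is annotated as a pseudogene.

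All animals were C57BL/6NTac mice, 8 weeks old and matched for sex, with no genetic change or drug named. In the spaceflight group, 4 mice spent 13 days aboard the space shuttle, and the ground-control group held 4 mice in animal enclosure modules of the same type on Earth. Thymus lobes were taken after the mission, and total RNA of each mouse was hybridised to a single Affymetrix array. Values are log2 signals, so a difference of 1 is a doubling, and every difference below is spaceflight minus ground control.

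Cells make superoxide and hydrogen peroxide as by-products of respiration and signalling. Superoxide dismutases turn superoxide into hydrogen peroxide, which catalase, glutathione peroxidases and peroxiredoxins then reduce. Glutathione and thioredoxin supply the electrons, and their own reductases restore them with NADPH. The transcription factor NRF2, held in check by KEAP1, switches on many of these genes under oxidative stress. The thymus is the organ where T cells mature, and its lobes hold thymocytes, epithelium, macrophages, fibroblasts and neighbouring fat.

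The promoters of 4 members are shown because their windows hold letter matches to known response elements. Whether these matches switch the genes on was not tested. Each is a window of 300 bases, 250 before to 50 after the transcription start in RefSeq on assembly GRCm38.p6. For Txnip, the only member whose spaceflight arrays all lay above all control arrays, capitals mark matches on either strand to the carbohydrate response element, a pair of E-box-like motifs bound by MondoA and ChREBP, and to the CCAAT box. For Prdx1, Srxn1 and Gclm, capitals mark matches on either strand to the core of the antioxidant response element, the site bound by NRF2 (TGACNNNGC), or to a related form that resembles an AP-1 site (TGANTCAGC). In Prdx1 the 2 motifs overlap.
Txnip (chr3:96557707-96558006, + strand): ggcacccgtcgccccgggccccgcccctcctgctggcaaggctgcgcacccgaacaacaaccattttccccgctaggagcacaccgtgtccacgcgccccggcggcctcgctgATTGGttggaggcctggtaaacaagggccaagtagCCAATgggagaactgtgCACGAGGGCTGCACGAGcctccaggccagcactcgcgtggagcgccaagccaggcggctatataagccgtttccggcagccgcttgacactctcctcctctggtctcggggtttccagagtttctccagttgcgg
Prdx1 (chr4:116685349-116685648, + strand): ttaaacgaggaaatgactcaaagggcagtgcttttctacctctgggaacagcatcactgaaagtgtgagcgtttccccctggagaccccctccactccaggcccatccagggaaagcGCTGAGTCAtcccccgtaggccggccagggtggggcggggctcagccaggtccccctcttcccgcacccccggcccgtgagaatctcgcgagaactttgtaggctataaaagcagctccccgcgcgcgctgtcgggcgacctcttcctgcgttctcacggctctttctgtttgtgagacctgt
Srxn1 (chr2:152105274-152105573, + strand): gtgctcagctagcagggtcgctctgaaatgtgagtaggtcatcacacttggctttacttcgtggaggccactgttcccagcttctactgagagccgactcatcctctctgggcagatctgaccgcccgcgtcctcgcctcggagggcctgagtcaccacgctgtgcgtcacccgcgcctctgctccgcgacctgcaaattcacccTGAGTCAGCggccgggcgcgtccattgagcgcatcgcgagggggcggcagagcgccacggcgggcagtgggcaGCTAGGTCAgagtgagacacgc
Gclm (chr3:122245307-122245606, + strand): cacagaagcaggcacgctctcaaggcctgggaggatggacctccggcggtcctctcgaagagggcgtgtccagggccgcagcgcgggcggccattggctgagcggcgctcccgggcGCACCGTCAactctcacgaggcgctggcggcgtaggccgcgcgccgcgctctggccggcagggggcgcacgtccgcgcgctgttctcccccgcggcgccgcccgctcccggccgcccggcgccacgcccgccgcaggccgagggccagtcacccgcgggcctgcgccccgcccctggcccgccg

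A promoter window was found for 56 of the 65 members, with 74 windows in all because some genes have several starts. The antioxidant response element core was present in 16.2% of member windows, in 12 genes, against 12.4% of the 32851 promoter windows of all genes. Its AP-1-like form was present in 4.05% of member windows (Gstp1, Prdx1 and Srxn1) against 1.19% of all. The carbohydrate response element was found in the Txnip window and in 16 of all windows, or 0.0487%. CCAAT boxes were in 51.4% of member windows against 37.4% of all. A match is a stretch of letters in a window, not a site shown to be bound.

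The arrays set the limits of what follows. A pair of arrays, spaceflight replicates 1 and 3, differed from the remaining 6 in their spread of signals, with an interquartile range of 2.43 in each against 2.68 to 2.95. They correlated with the remaining arrays at 0.954 to 0.984, and those with each other at 0.986 to 0.994. The main results are therefore given with and without this pair. The 9 thymocyte markers measured, among them Rag1, Cd4 and Cd8a, had a mean log2 level of 10.27 to 10.55 in spaceflight and 10.51 to 10.60 in ground-control arrays, which fits the labelled tissue. With 4 arrays against 4, an exact two-sided permutation test cannot give a p below 0.0286.

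None of the 65 genes passed the test of the difference between spaceflight and ground control at an adjusted p under 0.05 (limma, Benjamini-Hochberg over all 28943 probe sets), where 2 of all genes (0.01%) were higher and 8 (0.0401%) lower. At an unadjusted p under 0.05, 1 member was higher, against 3.05% of all genes. In the other direction 7 members (10.8%) were lower, against 7% of all genes. Of the 10529 genes at or above the median signal of all probe sets, 133 were higher and 1215 lower at that p. Of the 52 members at that signal, 1 was higher and 6 were lower. The 1 higher member was Txnip, and the 7 lower ones were Gpx2, Gpx4, Gpx7, Gpx8, Gsr, Txn2 and Txnl1. The groups did not overlap for Txnip on the higher side (background 1.73% of genes) and for Gpx2, Gpx8 and Txnl1 on the lower side (4.62% of members, background 4.28%).

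Most members had a lower mean in spaceflight: 49 of 65 (75.4%), against 53.5% of all genes, while 16 had a higher mean (background 46.5%). Genes with a strong signal were more often lower in general. Of the 10529 genes at or above the median signal of all probe sets 7881 had a lower mean, and of the 52 members at that level 44 did. The members' median difference was -0.17, against -0.02 over all genes and -0.11 over the genes at or above the median signal. The lower median rested on few arrays. Without spaceflight replicate 1 it was -0.08 for the members and -0.08 for the genes at or above the median signal. Without replicates 1 and 3 it was -0.02 for the members and -0.01 for those genes, and 33 of 65 members were lower. Spaceflight replicate 1 was the lowest of the 8 arrays for 39 members (60%), where it was the lowest for 22.9% of all genes. At or above the median signal, it was the lowest for 3786 of 10529 genes and for 35 of 52 members. At the other end, ground-control replicate 3 was the highest array for 27 members (41.5%, against 19.1% of all genes) and spaceflight replicate 4 for 16 (24.6%, against 13.5%). At or above the median signal, ground-control replicate 3 was the highest for 2933 of 10529 genes and for 24 of 52 members.

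**Figure D1:**
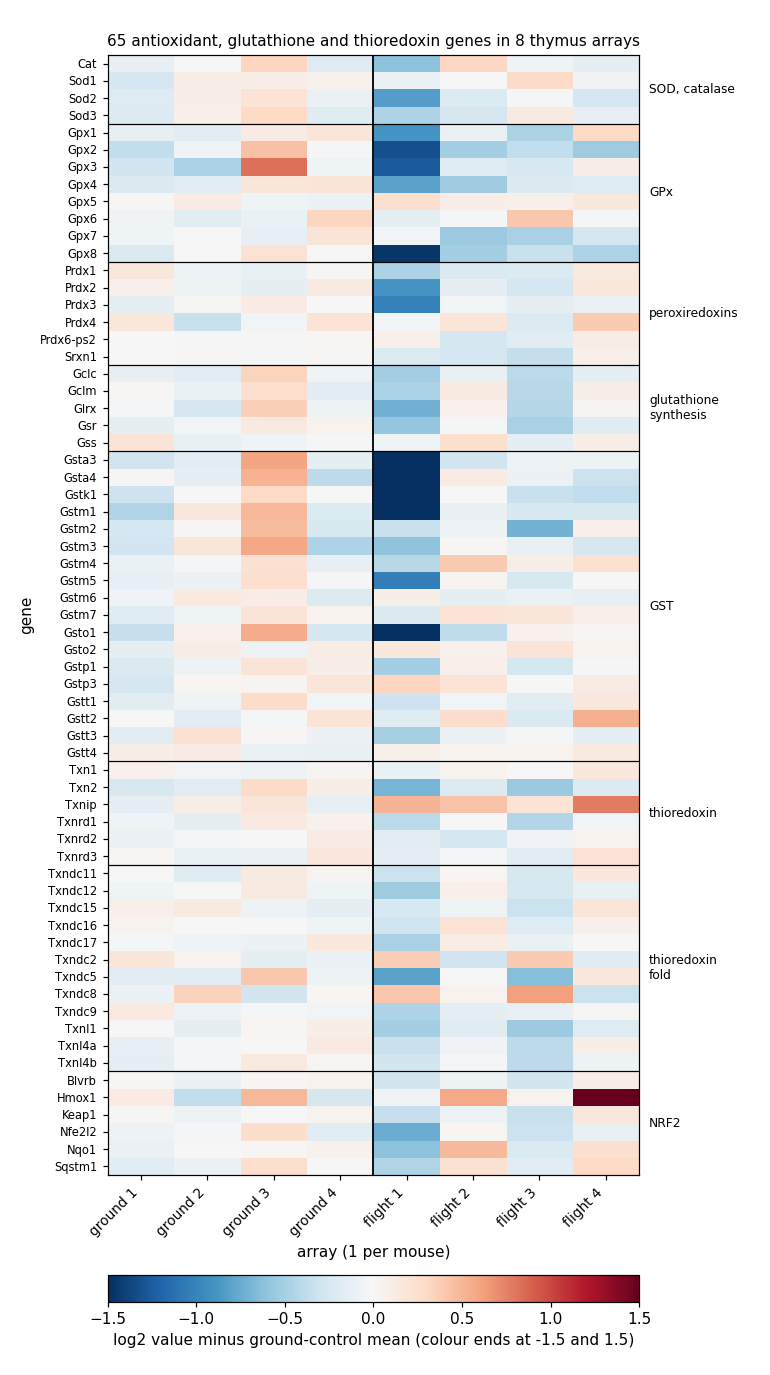
Log2 signal of each of the 65 genes (rows, by role) in each of the 8 arrays (columns), minus the gene's ground-control mean; blue is lower and red higher, with colours ending at -1.5 and 1.5. Spaceflight replicate 1 is the lowest array for 39 of the 65 genes, and Txnip is the row in which all 4 spaceflight arrays lie above all ground-control arrays.

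Glutathione peroxidases use glutathione to reduce peroxides, and were the role group with the lowest median, -0.37 over 8 genes (-0.20 without spaceflight replicates 1 and 3). Of these 8 genes 6 had a lower mean in spaceflight, beside 53.5% of all genes and 7881 of the 10529 at or above the median signal. At an unadjusted p under 0.05, 4 of the 8 were lower, against 7% of all genes and 1215 of the 10529 at or above the median signal. None passed after adjustment. Without replicates 1 and 3, Gpx2, Gpx7 and Gpx8 were the only members lower at an unadjusted p under 0.05. They made up 4.62% of the members, against 3.68% of all genes, and again none passed after adjustment.

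Gpx8 encodes a membrane-bound peroxidase of the endoplasmic reticulum that works with protein disulfide isomerase. Its log2 signal was 6.30, 7.25, 7.43 and 7.29 in spaceflight replicates 1 to 4, and 7.54, 7.75, 7.97 and 7.76 in ground-control replicates 1 to 4. Every spaceflight array thus lay below every control array, with replicate 1 far below the other 3. The difference was -0.69 ± 0.23 (log2, SE; 95% interval -1.19 to -0.19; 1.61-fold lower), with a limma unadjusted p of 0.0118, an adjusted p of 0.433 and an exact permutation p of 0.0286, the smallest possible. It was -0.43 without spaceflight replicate 1 and -0.48 without replicates 1 and 3 (limma unadjusted p = 0.00551, adjusted p = 0.505).

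Gpx2 encodes the peroxidase known from the lining of the gut and other epithelia. Spaceflight arrays read 5.18, 5.99, 6.13 and 5.96 in replicate order, and ground-control arrays 6.13, 6.44, 6.94 and 6.49. The groups met at 6.13 to 2 decimals, where spaceflight replicate 3 was just below ground-control replicate 1, and spaceflight replicate 1 was again the lowest. The difference was -0.68 ± 0.22 (95% interval -1.18 to -0.19; limma unadjusted p = 0.0117, adjusted p = 0.433; exact permutation p = 0.0286). Without replicates 1 and 3 it was -0.52.

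Gpx4 encodes the selenoprotein that reduces lipid peroxides inside membranes and so guards cells from ferroptosis. Its spaceflight values were 9.05, 9.33, 9.64 and 9.67, and its ground-control values 9.63, 9.70, 10.04 and 10.04. Spaceflight replicates 3 and 4 lay within the control range or at its lower edge, and replicates 1 and 2 below it. The difference was -0.43 ± 0.16 (limma unadjusted p = 0.0237, adjusted p = 0.462; exact permutation p = 0.0857), and it was -0.36 without replicates 1 and 3. A second Gpx4 probe set differed by -0.35. Probe positions are not given in the sources used here, so whether the probe set used for Gpx4, Gstm3, Prdx1 or Prdx2 lies on the gene itself or on a near-identical processed copy was not tested.

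Gpx7, a peroxidase of the endoplasmic reticulum related to Gpx8, had a difference that did not come from spaceflight replicate 1. Its values were 4.89, 4.39, 4.45 and 4.67 in spaceflight and 4.87, 4.93, 4.82 and 5.13 in ground control. Here replicate 1 was within the control range and the other 3 were below it. The difference was -0.34 ± 0.13 with all arrays (limma unadjusted p = 0.0293, adjusted p = 0.464) and -0.43 without replicate 1 (unadjusted p = 0.0057). Gpx7 was described array by array after its values were seen, and its signal is below the median of all probe sets.

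The remaining peroxidases overlapped between groups. Gpx1, the abundant cytosolic form, differed by -0.29 ± 0.22 and Gpx3, the form secreted into plasma, by -0.40 ± 0.33. Without replicates 1 and 3 these differences were 0.10 and -0.04. Gpx5, known from the epididymis, had low signals of 3.82, 3.68, 3.66 and 3.74 in spaceflight and 3.60, 3.71, 3.52 and 3.50 in ground control. Its groups overlapped at a single control array, and the difference was 0.14 ± 0.10 (limma unadjusted p = 0.169, adjusted p = 0.567). Gpx6, an olfactory form, differed by 0.06 ± 0.15.

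**Figure D2:**
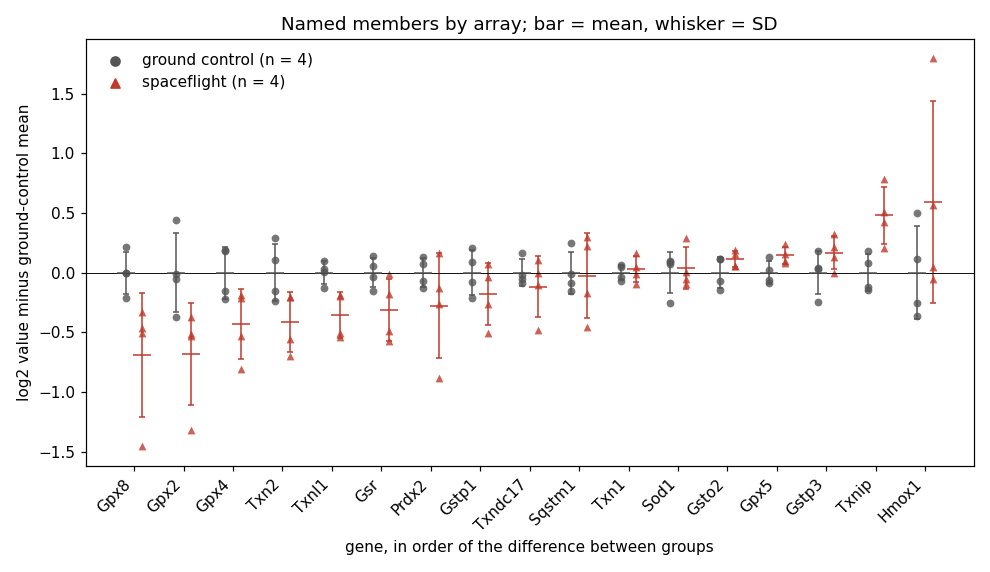
Log2 signal minus the ground-control mean (y axis) for 17 genes (x axis, ordered by difference), with 1 point per array, a bar at the group mean and whiskers of 1 SD (n = 4 per group; grey circles ground control, red triangles spaceflight). Gpx8 and Gpx2 lie at the left with spaceflight replicate 1 far below the rest, and Txnip and Hmox1 at the right, where spaceflight replicate 4 is the highest Hmox1 point.

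The thioredoxin system is the second electron source. Thioredoxins reduce disulfides and peroxiredoxins, thioredoxin reductases recharge them with NADPH, and TXNIP binds thioredoxin and blocks it, besides limiting glucose uptake. Over these 6 genes the median difference was -0.07, and 0.03 without spaceflight replicates 1 and 3. The inhibitor and the mitochondrial thioredoxin lay at opposite ends.

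Txnip measured 11.67, 11.59, 11.38 and 11.95 in the 4 spaceflight arrays and 11.02, 11.25, 11.35 and 11.05 in the 4 controls. All spaceflight arrays were above all controls, with spaceflight replicate 4 the highest and replicate 3 only just above ground-control replicate 3. The group means were 11.65 ± 0.24 and 11.17 ± 0.16 (SD, n = 4 each), a difference of 0.48 ± 0.14 (SE; 95% interval 0.17 to 0.79) or 1.4-fold. The limma unadjusted p was 0.00566, the smallest of the 65 members, with an adjusted p of 0.39 and an exact permutation p of 0.0286, the smallest possible. The difference was 0.47 without spaceflight replicate 1 and 0.60 without replicates 1 and 3 (unadjusted p = 0.00267, adjusted p = 0.405). Across all alternative settings it ran from 0.38 to 0.60, with adjusted p-values of 0.224 to 0.736.

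Txn2, the mitochondrial thioredoxin, read 8.12, 8.61, 8.26 and 8.62 in spaceflight and 8.58, 8.66, 9.11 and 8.92 in ground control. Spaceflight replicates 1 and 3 were the low ones, and replicates 2 and 4 overlapped the lowest control. The difference of -0.42 ± 0.16 (limma unadjusted p = 0.0245, adjusted p = 0.462; exact permutation p = 0.0857) was -0.20 without replicates 1 and 3. Txn1, the cytosolic thioredoxin, measured 11.61, 11.76, 11.70 and 11.87 in spaceflight and 11.77, 11.67, 11.63 and 11.75 in ground control. Its groups covered nearly the same range, with a difference of 0.03 ± 0.10 (95% interval -0.19 to 0.25). Among the reductases, Txnrd1 of the cytosol differed by -0.22 ± 0.13 (-0.02 without replicates 1 and 3), Txnrd2 of mitochondria by -0.10 ± 0.11 and Txnrd3, known from testis, by -0.03 ± 0.12. All 3 reductases overlapped between groups.

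Other proteins built on the thioredoxin fold had a median of -0.15 over 12 genes, and of 0.00 without replicates 1 and 3. With all arrays 10 of the 12 were lower, beside 53.5% of all genes and 7881 of the 10529 at or above the median signal. Txnl1, a thioredoxin-like protein bound to the proteasome, had the smallest p of these 12 genes. Its values were 7.97, 8.29, 7.93 and 8.28 in spaceflight and 8.48, 8.34, 8.51 and 8.57 in ground control. The groups did not overlap, although spaceflight replicates 2 and 4 came close to ground-control replicate 2. The difference was -0.36 ± 0.12 (limma unadjusted p = 0.0128, adjusted p = 0.436; exact permutation p = 0.0286), and it was -0.19 without replicates 1 and 3. Txndc17, a cytosolic disulfide reductase also called TRP14, measured 9.38, 9.97, 9.76 and 9.86 in spaceflight and 9.84, 9.80, 9.78 and 10.02 in ground control. Only spaceflight replicate 1 stood clear below the controls, and the difference was -0.12 ± 0.14.

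Of the disulfide isomerase-like members in the endoplasmic reticulum, Txndc5 differed by -0.32 ± 0.23 (0.08 without replicates 1 and 3), Txndc12 by -0.20 ± 0.13 (-0.02 without them), Txndc11 by -0.09 ± 0.13, Txndc15 by -0.11 ± 0.13 and Txndc16 by -0.05 ± 0.13. The splicing-related Txnl4a and Txnl4b differed by -0.17 ± 0.13 and -0.19 ± 0.12, and Txndc9, a regulator of chaperonin folding, by -0.17 ± 0.12. Txndc2 and Txndc8, which are known from sperm, had dim signals and differed by 0.07 ± 0.17 and 0.19 ± 0.20, or by -0.24 and -0.13 without replicates 1 and 3. None of these 10 genes reached an unadjusted p under 0.05.

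Glutathione S-transferases attach glutathione to reactive electrophiles so that they can be exported. They are strongly expressed in liver, epithelia and other stromal tissues, and closely related members of a class can bind the same probes, so their signals are not fully separate. Their median difference was -0.18 over 18 genes, and none reached an unadjusted p under 0.05 in either direction. Lower means were found in 12 of the 18, beside 53.5% of all genes and 7881 of the 10529 at or above the median signal. Without replicate 1 the median was -0.08, and without replicates 1 and 3 it was 0.01, with 8 of 18 lower.

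The 5 transferases with the largest negative differences were lowest in spaceflight replicate 1, which was the lowest array for 12 of the 18. Ground-control replicate 3 was the highest array for all 5, and for 10 of the 18. Gsta4, which acts on the lipid peroxidation product hydroxynonenal, measured 7.10, 9.04, 8.84 and 8.60 in spaceflight and 8.94, 8.77, 9.44 and 8.53 in ground control. Gsto1, which reduces dehydroascorbate, measured 7.37, 8.92, 9.36 and 9.32 against 8.95, 9.36, 9.85 and 9.03. In both, spaceflight replicate 1 was more than 1 log2 unit below every other array, and the other 3 spaceflight arrays lay within or next to the control range. Gsta3, Gstk1 and Gstm1 had the same arrangement, with replicate 1 at 6.12, 6.07 and 6.41. With all arrays these 5 genes differed by -0.53 to -0.60, with SEs of 0.30 to 0.40, and without spaceflight replicate 1 by -0.10 to -0.23. They were grouped after their values were seen.

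Gstp1 had the highest mean signal of the 18 transferases. Its probe set read 9.62, 10.20, 9.87 and 10.09 in spaceflight and 9.91, 10.05, 10.33 and 10.21 in ground control. The groups overlapped, with a difference of -0.18 ± 0.15 that was 0.02 without replicates 1 and 3. Probe sets shared by Gstp1 and Gstp2 differed by -0.18 each, and those shared by Gsta1, Gsta2 and related genes by -0.06 to 0.02. Gstp3 measured 6.21, 6.10, 5.88 and 6.01 in spaceflight against 5.64, 5.91, 5.92 and 6.07 in ground control. Gsto2, a second dehydroascorbate reductase, measured 5.78, 5.69, 5.82 and 5.68 against 5.48, 5.74, 5.55 and 5.74. Both were overlapping and higher on average, by 0.17 ± 0.12 for Gstp3 (limma adjusted p = 0.592) and 0.11 ± 0.10 for Gsto2 (adjusted p = 0.657).

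The other mu-class genes were mixed. Gstm2, Gstm3 and Gstm5 differed by -0.26, -0.24 and -0.31 (0.00, -0.12 and 0.02 without replicates 1 and 3), Gstm6 by -0.07, and Gstm4 and Gstm7 by 0.08 and 0.06. A second Gstm3 probe set differed by 0.03, opposite in sign to the one used, so the direction for Gstm3 is uncertain. The theta-class genes Gstt1, Gstt2, Gstt3 and Gstt4 differed by -0.09, 0.10, -0.18 and 0.08. Without replicates 1 and 3, Gstm4 and Gstt2 differed by 0.31 and 0.40 (limma unadjusted p = 0.0423 and 0.0172, adjusted p = 0.736 and 0.657).

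Glutathione synthesis and reduction are carried by 5 members. Their median difference was -0.26, and 0.05 without replicates 1 and 3. Gsr, the reductase that regenerates glutathione from its oxidised form, measured 8.18, 8.74, 8.27 and 8.58 in spaceflight and 8.60, 8.72, 8.89 and 8.81 in ground control. Replicates 1 and 3 were low and replicates 2 and 4 within or just below the control range, with a difference of -0.31 ± 0.14 (limma unadjusted p = 0.0479, adjusted p = 0.486; exact permutation p = 0.0857) that was -0.10 without those replicates. Gclc and Gclm, the catalytic and modifier subunits of the rate-limiting ligase, differed by -0.29 ± 0.14 and -0.17 ± 0.16, or by -0.12 and 0.11 without replicates 1 and 3. Gss, which completes glutathione, differed by 0.03 ± 0.12, and Glrx, a glutaredoxin that uses glutathione to reduce proteins, by -0.26 ± 0.20, or 0.05 without those replicates.

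Superoxide dismutases and catalase had a median of -0.15 over 4 genes and -0.11 without replicates 1 and 3. Sod1, the cytosolic copper-zinc enzyme, measured 10.22, 10.31, 10.60 and 10.26 in spaceflight and 10.06, 10.40, 10.41 and 10.38 in ground control. The highest array was spaceflight replicate 3 and the lowest ground-control replicate 1, and the difference was 0.04 ± 0.13 (95% interval -0.24 to 0.32). Mitochondrial Sod2 differed by -0.33 ± 0.17 (limma unadjusted p = 0.0889, adjusted p = 0.51) and by -0.23 without replicates 1 and 3. Extracellular Sod3 differed by -0.18 ± 0.16 and Cat by -0.13 ± 0.19, or by -0.19 and 0.09 without those replicates.

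Peroxiredoxins, which reduce peroxides with electrons from thioredoxin, and sulfiredoxin, which revives overoxidised peroxiredoxin, had a median of -0.19 over 6 genes and -0.05 without replicates 1 and 3. Prdx2, a cytosolic form that is abundant in red cells, read 9.01, 9.76, 9.63 and 10.06 in spaceflight and 9.96, 9.82, 9.76 and 10.02 in ground control. Spaceflight replicate 1 was the lowest array and replicate 4 the highest, with a difference of -0.28 ± 0.19 that was 0.02 without replicates 1 and 3. Mitochondrial Prdx3 differed by -0.33 ± 0.20 (-0.07 without those replicates), Prdx1 by -0.19 ± 0.14, Srxn1 by -0.19 ± 0.11, Prdx6-ps2 by -0.06 ± 0.11 and Prdx4, of the endoplasmic reticulum, by 0.09 ± 0.16. Second probe sets for Prdx1, Prdx2 and Txndc9 had the same sign as those used, with differences of -0.12, -0.21 and -0.20.

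The NRF2 group joins the regulators Nfe2l2 (NRF2 itself), Keap1 and Sqstm1, an autophagy receptor that also binds KEAP1, to the inducible enzymes Nqo1, Hmox1 and Blvrb. Its median difference was -0.08 over 6 genes and 0.16 without replicates 1 and 3. Hmox1, the stress-inducible heme oxygenase that macrophages use to break down heme, measured 7.08, 7.69, 7.18 and 8.92 in spaceflight and 7.24, 6.76, 7.63 and 6.87 in ground control. Spaceflight replicate 4 stood 1 log2 unit or more above all others, and replicates 1 and 3 lay among the controls. The difference of 0.59 ± 0.37 (95% interval -0.22 to 1.40; limma unadjusted p = 0.137, adjusted p = 0.543; exact permutation p = 0.286) became 1.18 without replicates 1 and 3 (unadjusted p = 0.00679, adjusted p = 0.538).

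Nqo1, a quinone reductase and textbook NRF2 target, measured 6.26, 7.37, 6.66 and 7.12 in spaceflight and 6.78, 6.89, 6.90 and 6.94 in ground control. The spaceflight arrays fell on both sides of a narrow control range, with replicates 1 and 3 below and 2 and 4 above it. The difference was -0.03 ± 0.21 with all arrays and 0.37 without replicates 1 and 3 (limma unadjusted p = 0.0118, adjusted p = 0.592). Sqstm1 had the same arrangement at its lower end, with 9.31, 9.99, 9.59 and 10.06 in spaceflight and 9.61, 9.68, 10.01 and 9.75 in ground control. Its difference was -0.02 ± 0.17, or 0.26 without those replicates. Nfe2l2, Keap1 and the biliverdin reductase gene Blvrb differed by -0.28 ± 0.17, -0.15 ± 0.13 and -0.13 ± 0.11, or by -0.04, 0.05 and 0.01 without those replicates.

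Leaving out spaceflight replicates 1 and 3 thus changed which members stood at an unadjusted p under 0.05. On the higher side there were then 5 (7.69%, against 3.27% of all genes): Hmox1, Nqo1, Gstm4, Gstt2 and Txnip. On the lower side there were 3 members (4.62%, against 3.68% of all genes), all peroxidases, in place of 7. Of the 10529 genes at or above the median signal, 481 were then higher and 477 lower at that p. Of the 52 members there, 5 were higher and 2 lower. Without replicate 1 alone, 1 member was higher (background 1.92%) and 4 were lower (background 4.65%). Again no member passed the adjusted threshold, where 0.01% of all genes were higher and 0.0201% lower. These values compare 2 spaceflight arrays with 4 controls.

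**Figure D3:**
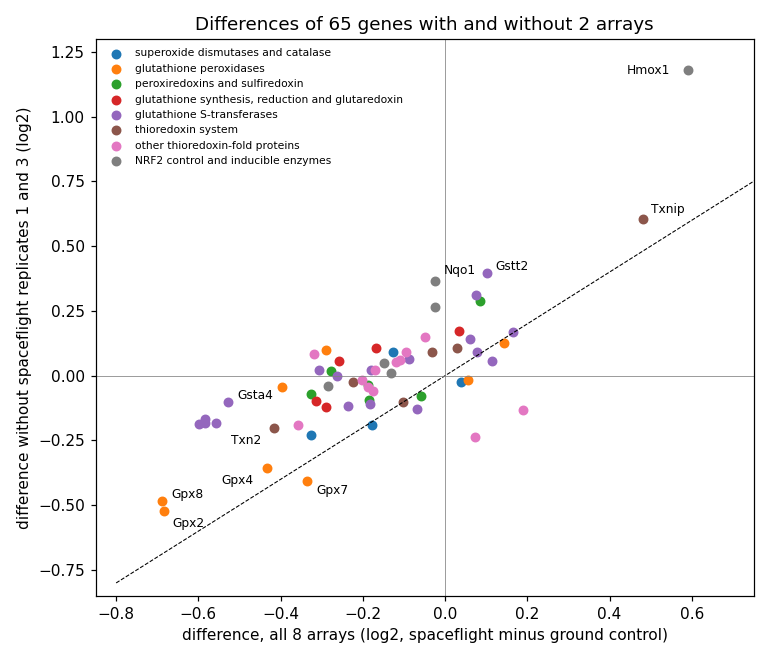
Difference between spaceflight and ground control (log2) of each of the 65 genes with all 8 arrays (x axis) and without spaceflight replicates 1 and 3 (y axis), coloured by role; the dashed line marks equal values. The peroxidases Gpx2, Gpx7 and Gpx8 keep y values of -0.41 to -0.52, most other genes to the left of 0 lie above the line with y values closer to 0, and Hmox1 moves from 0.59 to 1.18.

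Markers of other cell types, measured in the RNA of the lobes, differed between arrays in the same direction as several members. On average 10 of 10 airway, 8 of 9 fat cell and 9 of 10 fibroblast markers were lower in spaceflight, where 53.5% of all genes were. So were 9 of 10 cortical epithelium, 8 of 10 macrophage, 7 of 9 liver, 5 of 7 red cell and 9 of 9 thymocyte markers. Of the genes at or above the median signal, 7881 of 10529 were lower. Without spaceflight replicates 1 and 3 the airway, fat cell and fibroblast counts were 10 of 10, 5 of 9 and 3 of 10. The other counts, in the order above, were then 6 of 10, 2 of 10, 7 of 9, 6 of 7 and 7 of 9. The fibroblast median went from -0.06 to 0.10. Over 10 airway epithelium markers the median deviation from the control mean was -2.72 in spaceflight replicate 1 and 0.84 in ground-control replicate 3. Over 9 fat cell markers it was -1.10 and 0.40, over 10 fibroblast markers -0.70 and 0.50, and over 18 glutathione S-transferases -0.46 and 0.24. The mean log2 level of the markers ran from 5.56 to 8.72 in spaceflight and 8.18 to 9.47 in ground control for airway, from 8.20 to 9.22 and 9.14 to 9.67 for fat, and from 7.01 to 7.94 and 7.46 to 8.21 for fibroblasts. For cortical thymic epithelium, the 10 markers averaged 8.21 to 8.52 in spaceflight and 8.67 to 8.79 in ground control. Red cell markers (7 measured) averaged 4.94 to 5.31 and 5.04 to 5.35, and 9 liver markers 6.06 to 6.40 and 6.31 to 7.42. In RNA of whole lobes, fewer cells of a type and less RNA per cell cannot be told apart, and the part of these cells in the members' values was not tested. Whether the airway and liver markers came from cells of the lobes themselves was not tested either.

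Macrophage markers (10 measured) followed the order of Hmox1 among the spaceflight arrays. Their median deviation was -0.93, 0.01, -0.42 and 0.29 in replicates 1 to 4, highest in the replicate with the highest Hmox1 signal. Their mean log2 level was 7.45 to 8.62 in spaceflight and 8.19 to 8.57 in ground control. Among the spaceflight arrays this order was not particular to macrophage markers: the medians of the 65 members were -0.46, -0.02, -0.20 and 0.04. In ground-control replicates 1 to 4 the macrophage medians were -0.02, -0.15, 0.20 and -0.09, again in the order of Hmox1. The members' medians there, -0.09, -0.04, 0.13 and -0.0004, were not in that order. Between groups 8 of 10 macrophage markers were lower in spaceflight, with a median difference of -0.30, while Hmox1 was higher. Without replicates 1 and 3 that median was 0.17, with 2 of 10 lower. Whether macrophage content accounts for any of the Hmox1 values was not tested.

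**Figure D4:**
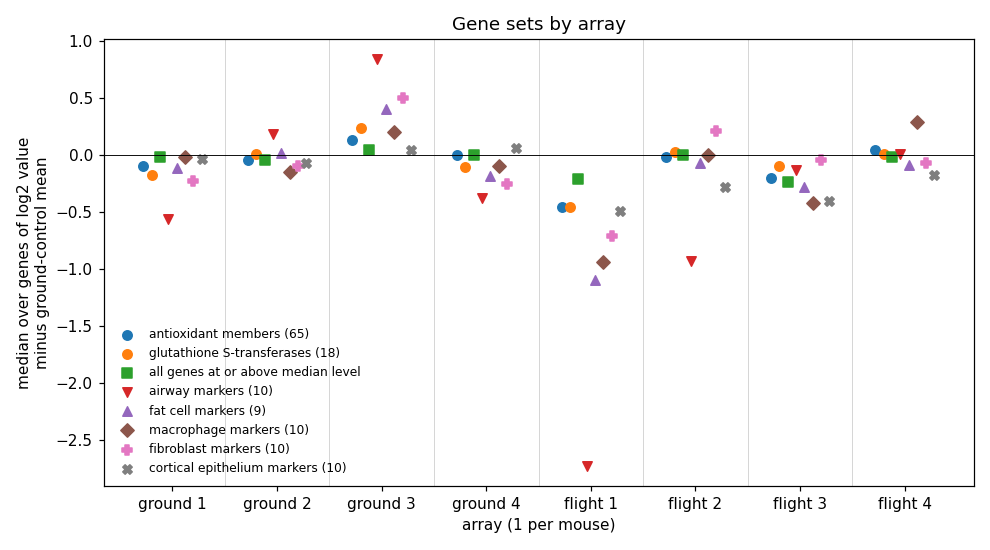
Median over genes of the log2 signal minus the ground-control mean (y axis) in each array (x axis). The sets are the 65 members, the 18 transferases, all genes at or above the median signal, and 5 marker lists of cell types. In spaceflight replicate 1 the members and transferases are both at -0.46, the genes at or above the median signal at -0.21 and the airway markers at -2.72.

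Genes of the same pathways that are not members were taken from 5 lists, none with a gene past the adjusted threshold. The background for every list is 53.5% of all genes lower and 46.5% higher, or 7% and 3.05% at an unadjusted p under 0.05. Of the genes at or above the median signal, 7881 of 10529 were lower. At an unadjusted p under 0.05, 1215 of these 10529 were lower and 133 higher. Of 17 other enzymes and transporters listed as driven by NRF2, 13 were lower and 4 higher, with 4 lower and none higher at an unadjusted p under 0.05. Without spaceflight replicates 1 and 3, 9 of the 17 were lower. The 3 of smallest p were Tkt, transketolase of the pentose phosphate pathway, with a difference of -0.75 ± 0.11 (limma adjusted p = 0.0604), Me1, malic enzyme, with -1.30 ± 0.23 (adjusted p = 0.116), and Pgd, phosphogluconate dehydrogenase, with -0.79 ± 0.19 (adjusted p = 0.31). Me1 and Pgd make NADPH, the electron donor of both reductase systems. Without spaceflight replicates 1 and 3 the differences were -0.77 for Tkt, -1.51 for Me1 and -0.53 for Pgd, so that Tkt and Me1 did not move towards 0.

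Among 12 regulators around NRF2 and BACH1, 6 were higher and 6 lower, with none at an unadjusted p under 0.05. Without spaceflight replicates 1 and 3, 3 of the 12 were lower. Nfe2l1, Rbx1 and Dpp3 had the smallest p, with differences of -0.27, -0.25 and -0.17 that were -0.04, 0.02 and 0.07 without spaceflight replicates 1 and 3. Among 17 other glutathione and glutaredoxin genes 6 were higher and 11 lower, again with none at that level, led by Mgst2 (0.30), Glo1 (-0.27) and Hagh (-0.29). Without the same replicates Mgst2 differed by 0.45, Glo1 by -0.02 and Hagh by 0.01, and 8 of the 17 genes were lower. Of 15 methionine sulfoxide reductase and selenoprotein genes 11 were lower and 4 higher. Selenow, a small selenoprotein, differed by -0.50 ± 0.19 (limma unadjusted p = 0.026, adjusted p = 0.462), Sephs1, a homologue of selenophosphate synthetase, by -0.28 and Secisbp2, which helps ribosomes insert selenocysteine, by -0.19. Without replicates 1 and 3 these were -0.30, -0.16 and -0.16, and 8 of the 15 genes were lower. Of 11 oxidant sources and heme oxygenase partners 4 were higher and 7 lower. Duox2, an oxidase that makes hydrogen peroxide, differed by 0.28 ± 0.12 (limma unadjusted p = 0.0451, adjusted p = 0.485), and the phagocyte oxidase genes Ncf4 and Rac2 by -0.25 and -0.24. Without spaceflight replicates 1 and 3 these were 0.17, -0.02 and 0.01, the list median went from -0.13 to 0.10, and 2 of the 11 genes were lower.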

How the data were processed

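The deposited table holds log2 expression values of 8 arrays, made by the authors with RMA, which quantile-normalizes arrays and summarises probes, and limma, per the submitters' processing notes; their versions, a genome build and filters are not given in the sources used here. Of 35557 probe sets, the lowest unbroken run of 6614 identifiers, without genes in the annotation, was taken as controls and left out, a choice that followed a look at the values. The 28943 left were tested, of which 21789 named 1 gene, 1621 several and 5533 none, which gave 19938 genes. Symbols were updated through RefSeq (GRCm38.p6), where 21698 probe sets matched. Spaceflight and ground control were compared on the deposited log2 values with limma 3.58.1 in R 4.3.3 (lmFit, eBayes, two-sided, no replicate block) and Benjamini-Hochberg adjustment over all probe sets, at a threshold of 0.05, after tests on simulated data. Precision is limited by the number of arrays.

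The members and lists were chosen with earlier results of these data known. Array values are given for the 5 members of smallest p in each direction and the member of highest mean in each role, and for Gpx7, Nqo1, Gsta4 and Gsto1, picked after their values were seen. Of each pathway list the 3 genes of smallest p are named. Alternatives changed the centring, normalization, variance model, array weights, filter on dim genes, probe set rule, replicate block and the arrays left out; a fit over gene rows alone was added after seeing the data.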

Additional observations from a re-analysis of the deposited data

Results flagged for a closer look

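In 7 of 130 groups of 4 arrays (65 genes, both groups) 1 array lay far from the other 3 by Dixon's criterion, where chance alone gives about 6.5. Spaceflight replicate 1 was that array in 5 of the 7, on the low side in 4. Its log2 signal was 6.30 for Gpx8 (the other 3 began at 7.25), 6.12 for Gsta3 (7.78), 6.41 for Gstm1 (7.95) and 8.84 for Prdx3 (9.71), and for Gstm6 it was high, at 4.41, with the nearest array at 4.21. In ground control, replicate 3 was high for Txndc5, at 8.40 with the nearest at 7.91, and replicate 1 was low for Sod1, at 10.06 with the nearest at 10.38.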

How the results depend on the processing

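No member passed the adjusted threshold under any of the alternatives run. The count of genes past it over the whole array, 10 as reported, was 0 with a replicate block, 3 with arrays centred on the 75th percentile, 6 without spaceflight replicates 1 and 3, 16 when fitted on gene rows alone (added after seeing the data), and 2 to 9 when single arrays were left out, lowest without ground-control replicate 2 or 4. The labels do not say that replicate numbers pair animals. Deviations of same-numbered arrays from their group means correlated at 0.24, -0.30, -0.10 and 0.07. These 4 values cannot decide the question, as differently numbered arrays were not compared. With the block 9 members were lower at an unadjusted p under 0.05, and the medians and the other counts of members were within 1.5 times of those reported. The 7 members lower at an unadjusted p under 0.05 numbered 3 (without ground-control replicate 4) to 12 (without spaceflight replicate 4) when single arrays were left out, 4 without spaceflight replicate 1 or ground-control replicate 3, and 3 without spaceflight replicates 1 and 3, where the 1 higher member became 5. The 4 members at the smallest exact permutation p numbered 2 with arrays centred on the median or on the 75th percentile. The members' median, -0.17 as reported, ran from -0.23 to -0.08 when single arrays were left out.

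Differences near 0 changed sign. Sqstm1 was 0.054 with arrays centred on the 75th percentile, 0.013 with repeated quantile normalization, 0.062 with array weights and 0.26 without spaceflight replicates 1 and 3. When single arrays were left out it ran from -0.13 (without spaceflight replicate 4) to 0.12 (without spaceflight replicate 1). Over the same alternatives Txndc17 ran from -0.20 to 0.0014, Sod1 from -0.047 to 0.081 and Txn1 from -0.017 to 0.069. Without spaceflight replicates 1 and 3, Txndc17 was 0.054, Sod1 -0.024, Gstp1 0.021 and Prdx2 0.017. The cause of these changes was not tested.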
